A study of Mus musculus with 16 samples.

Results

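The activity-induced genes of the dorsal hippocampus are described here as a set of 43 named genes, 37 early responders and 6 late responders, among 16899 genes tested and 55385 gene identifiers in all. They were taken by name from a list of genes known to be transcribed after neuronal firing, and matched to the files through their Ensembl identifiers. All 43 passed the filter on low counts. The RNA came from mice that had received recombinant adeno-associated virus in the dorsal hippocampus, had undergone contextual fear conditioning 3 weeks after the injection, and were killed 1 or 5 days after conditioning. Dnmt3a2_1d and Dnmt3a2_5d are the groups given virus for exogenous Dnmt3a2, and Control_1d and Control_5d are those given virus for GFP, with 4 libraries in each of the 4 groups. The sources used here give no strain, age, sex, transgene promoter or untrained animals. All 4 groups were trained, so no value below measures induction by training itself. The labels do not say that libraries came from separate mice, so the p-values measure the spread between libraries, which may be technical.

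Neuronal firing and calcium entry activate kinases and the transcription factors CREB, SRF and MEF2, which switch on immediate early genes within minutes without new protein synthesis. Many of these genes encode transcription factors, such as Fos and Egr1. Others encode brakes on the same signalling, such as the dual-specificity phosphatases, or synaptic proteins, such as Arc. Their products and slower signals then raise late genes for secreted and synaptic proteins, such as Bdnf. Most early transcripts are short-lived. Dnmt3a2 is a short isoform of the DNA methyltransferase Dnmt3a that is itself known as an activity-regulated gene.

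Promoter sequences are shown for the genes on which the results turn. Ier5l was lower with Dnmt3a2 than in controls. Jun passed an edgeR adjusted p of 0.05 at neither day, and only averaged over days. That comparison was added after the data had been seen, and Jun did not pass in 12 of 24 alternative analyses. Fos, Junb, Nr4a1, Egr4, Dusp1, Dusp5, Tiparp and Gadd45b varied with Arc between libraries and have a single window in the table. Egr2 and Trib1 also varied with Arc, and are named only. Each spans 250 bases before to 50 bases after the RefSeq transcription start, printed 5′ to 3′ on the gene's strand. Capitals mark the core TGACG of the cAMP response element (CRE) on either strand, the full CRE TGACGTCA, in which cores overlap on both strands, and the CArG box, the SRF motif. The windows in GRCm38.p6 are Ier5l at chr2:30474150-30474449 on the minus strand, Jun at chr4:95052173-95052472 on the minus strand, Fos at chr12:85473640-85473939 on the plus strand, Junb at chr8:84978699-84978998 on the minus strand, Nr4a1 at chr15:101266596-101266895 on the plus strand, Dusp1 at chr17:26508423-26508722 on the minus strand, Dusp5 at chr19:53528895-53529194 on the plus strand, Egr4 at chr6:85513540-85513839 on the minus strand, Tiparp at chr3:65528197-65528496 on the plus strand, and Gadd45b at chr10:80929841-80930140 on the plus strand.
Ier5l: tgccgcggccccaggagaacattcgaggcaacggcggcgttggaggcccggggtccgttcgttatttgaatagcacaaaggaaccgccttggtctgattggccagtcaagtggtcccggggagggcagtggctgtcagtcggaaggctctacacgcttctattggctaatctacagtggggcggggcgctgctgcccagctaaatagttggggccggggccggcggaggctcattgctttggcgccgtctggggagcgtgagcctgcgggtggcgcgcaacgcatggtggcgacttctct
Jun: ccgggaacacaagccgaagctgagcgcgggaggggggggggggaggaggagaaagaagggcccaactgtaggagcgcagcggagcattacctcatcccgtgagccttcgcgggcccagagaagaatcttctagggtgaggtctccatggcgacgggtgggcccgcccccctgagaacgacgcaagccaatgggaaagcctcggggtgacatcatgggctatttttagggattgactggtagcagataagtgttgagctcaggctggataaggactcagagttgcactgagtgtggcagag
Fos: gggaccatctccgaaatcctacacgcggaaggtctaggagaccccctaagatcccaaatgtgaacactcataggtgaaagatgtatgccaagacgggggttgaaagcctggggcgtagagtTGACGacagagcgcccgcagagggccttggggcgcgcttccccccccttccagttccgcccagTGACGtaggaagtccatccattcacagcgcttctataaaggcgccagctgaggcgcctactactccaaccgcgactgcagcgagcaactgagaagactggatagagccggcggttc
Junb: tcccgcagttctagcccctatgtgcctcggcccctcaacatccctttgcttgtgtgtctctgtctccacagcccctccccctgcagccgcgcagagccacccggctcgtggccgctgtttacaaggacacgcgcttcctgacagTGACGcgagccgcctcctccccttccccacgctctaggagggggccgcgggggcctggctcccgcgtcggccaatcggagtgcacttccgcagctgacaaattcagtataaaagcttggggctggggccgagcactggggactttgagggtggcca
Nr4a1: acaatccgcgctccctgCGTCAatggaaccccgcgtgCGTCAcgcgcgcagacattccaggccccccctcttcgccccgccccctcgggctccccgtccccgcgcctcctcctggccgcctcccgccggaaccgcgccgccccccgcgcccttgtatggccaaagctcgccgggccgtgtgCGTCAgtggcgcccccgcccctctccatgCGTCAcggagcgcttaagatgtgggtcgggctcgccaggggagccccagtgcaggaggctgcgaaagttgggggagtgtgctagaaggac
Dusp1: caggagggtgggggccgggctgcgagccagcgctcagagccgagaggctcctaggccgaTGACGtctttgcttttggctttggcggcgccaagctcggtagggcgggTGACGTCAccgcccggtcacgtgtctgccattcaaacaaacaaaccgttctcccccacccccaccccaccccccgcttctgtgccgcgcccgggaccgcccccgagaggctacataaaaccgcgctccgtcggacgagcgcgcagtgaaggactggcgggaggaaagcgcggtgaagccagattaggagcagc
Dusp5: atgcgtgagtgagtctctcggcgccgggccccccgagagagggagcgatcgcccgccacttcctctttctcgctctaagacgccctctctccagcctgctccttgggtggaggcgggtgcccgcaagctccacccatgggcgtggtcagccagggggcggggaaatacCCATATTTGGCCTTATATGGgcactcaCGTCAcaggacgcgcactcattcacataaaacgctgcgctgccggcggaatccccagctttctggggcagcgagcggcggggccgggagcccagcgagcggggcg
Egr4: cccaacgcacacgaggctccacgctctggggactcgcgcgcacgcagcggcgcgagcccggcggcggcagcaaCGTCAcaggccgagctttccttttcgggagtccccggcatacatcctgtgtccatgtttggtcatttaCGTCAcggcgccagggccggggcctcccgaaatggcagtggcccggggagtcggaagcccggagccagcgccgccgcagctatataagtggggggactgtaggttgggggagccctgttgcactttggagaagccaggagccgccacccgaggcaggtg
Tiparp: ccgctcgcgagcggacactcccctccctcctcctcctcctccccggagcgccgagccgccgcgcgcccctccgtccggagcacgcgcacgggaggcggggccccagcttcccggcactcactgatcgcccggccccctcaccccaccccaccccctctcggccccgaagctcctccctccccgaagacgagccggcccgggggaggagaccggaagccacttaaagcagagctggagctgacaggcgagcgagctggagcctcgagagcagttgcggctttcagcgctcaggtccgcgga
Gadd45b: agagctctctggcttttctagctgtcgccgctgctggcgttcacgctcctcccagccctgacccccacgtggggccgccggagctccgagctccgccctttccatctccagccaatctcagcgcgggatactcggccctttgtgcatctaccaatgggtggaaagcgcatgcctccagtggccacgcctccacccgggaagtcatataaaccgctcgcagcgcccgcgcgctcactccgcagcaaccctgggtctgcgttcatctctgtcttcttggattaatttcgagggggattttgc

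The windows of Ier5l, Jun, Tiparp and Gadd45b held no CRE core and no CArG box. That of Nr4a1 held 4 cores, those of Fos and Egr4 2 each, that of Junb 1, that of Dusp1 a full CRE and 3 cores counting those within it, and that of Dusp5 1 core and 2 CArG boxes. The RefSeq promoter table held 46 promoters of 33 of the 43 genes. Of these promoters 13.0% held the full CRE, against 1.79% of all 32851 promoters in the table. The core was present in 58.7% of the activity-induced promoters and 20.8% of all promoters, and a CArG box in 10.9% and 1.63%. The genes with a full CRE were Scg2, Btg2, Pcsk1, Plk2, Maff and Dusp1. Those with a CArG box were Egr2 and Dusp5, where overlapping Egr2 windows were counted separately. By gene the CArG box was present in 2 of 33, or 6.06%. No promoter was held for Arc, Egr1, Egr3, Ier2, Trib1, Gem, Vgf, Sik1, Dusp4 and Nptx2, so their motifs are not known here. The activity-induced promoters were also richer in CpG, with a median of 21 CpG per window against 7 over all promoters, and among the 8701 promoters with at least 20 CpG the full CRE was present in 3.84%, the core in 36.3% and the CArG box in 0.827%. A match describes the letters of the window and is not evidence of binding.

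The virus labels held in every library: Dnmt3a had 623 to 1250 CPM in the Dnmt3a2 libraries, against 32.7 to 37.7 CPM in controls, with transgene and endogenous reads counted together. It was 27.7-fold higher with Dnmt3a2 than in controls at 1 day and 33.0-fold higher at 5 days (edgeR adjusted p = 2.19e-09 and 1.27e-09). The libraries held 28.6 to 30.0 M estimated counts each, and levels are in CPM, the estimated counts per library scaled to a common total by TMM. Markers of dentate, CA1 and CA3 neurons were detected in all 16 libraries. Some libraries stood apart before any comparison. Replicate 4 of Dnmt3a2_1d was far above the rest in Arc and several other early genes. Replicate 1 of Dnmt3a2_1d and replicate 1 of Dnmt3a2_5d carried choroid plexus RNA, with 872 and 1390 CPM summed over 8 markers, against 42.8 to 208 CPM in the 8 control libraries and 46.6 to 130 CPM in the other 6 Dnmt3a2 libraries. Fewer cells of a type and less RNA per cell cannot be told apart in bulk tissue.

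Per kilobase of exon, the most abundant of the 43 genes over all libraries was Jund, a constitutively transcribed AP-1 subunit, at 160 CPM per kilobase. Vgf and Scg2, which encode precursors of secreted neuropeptides, followed at 73.6 and 62.0 CPM per kilobase, and Arc, the regulator of AMPA receptor endocytosis, at 54.1 CPM per kilobase. Egr1, a zinc finger factor induced by activity, stood at 39.2, Junb at 33.1 and Nr4a1 at 19.4 CPM per kilobase, and Fos at 2.76 CPM per kilobase. Npas4, a neuron-specific factor that responds to calcium entry, stood at 1.34 CPM per kilobase. Egr2, Atf3 and Maff were the lowest, at 0.435, 0.388 and 0.236 CPM per kilobase. Spread between libraries of a group, as a coefficient of variation of CPM, had a median of 13.7% over the early genes, 10.2% over the late genes and 10.1% over all genes tested. It was 63.2% for Egr2 and 45.3% for Arc, but 5.54% for Jun and 6.19% for Jund.

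**Figure D1:**
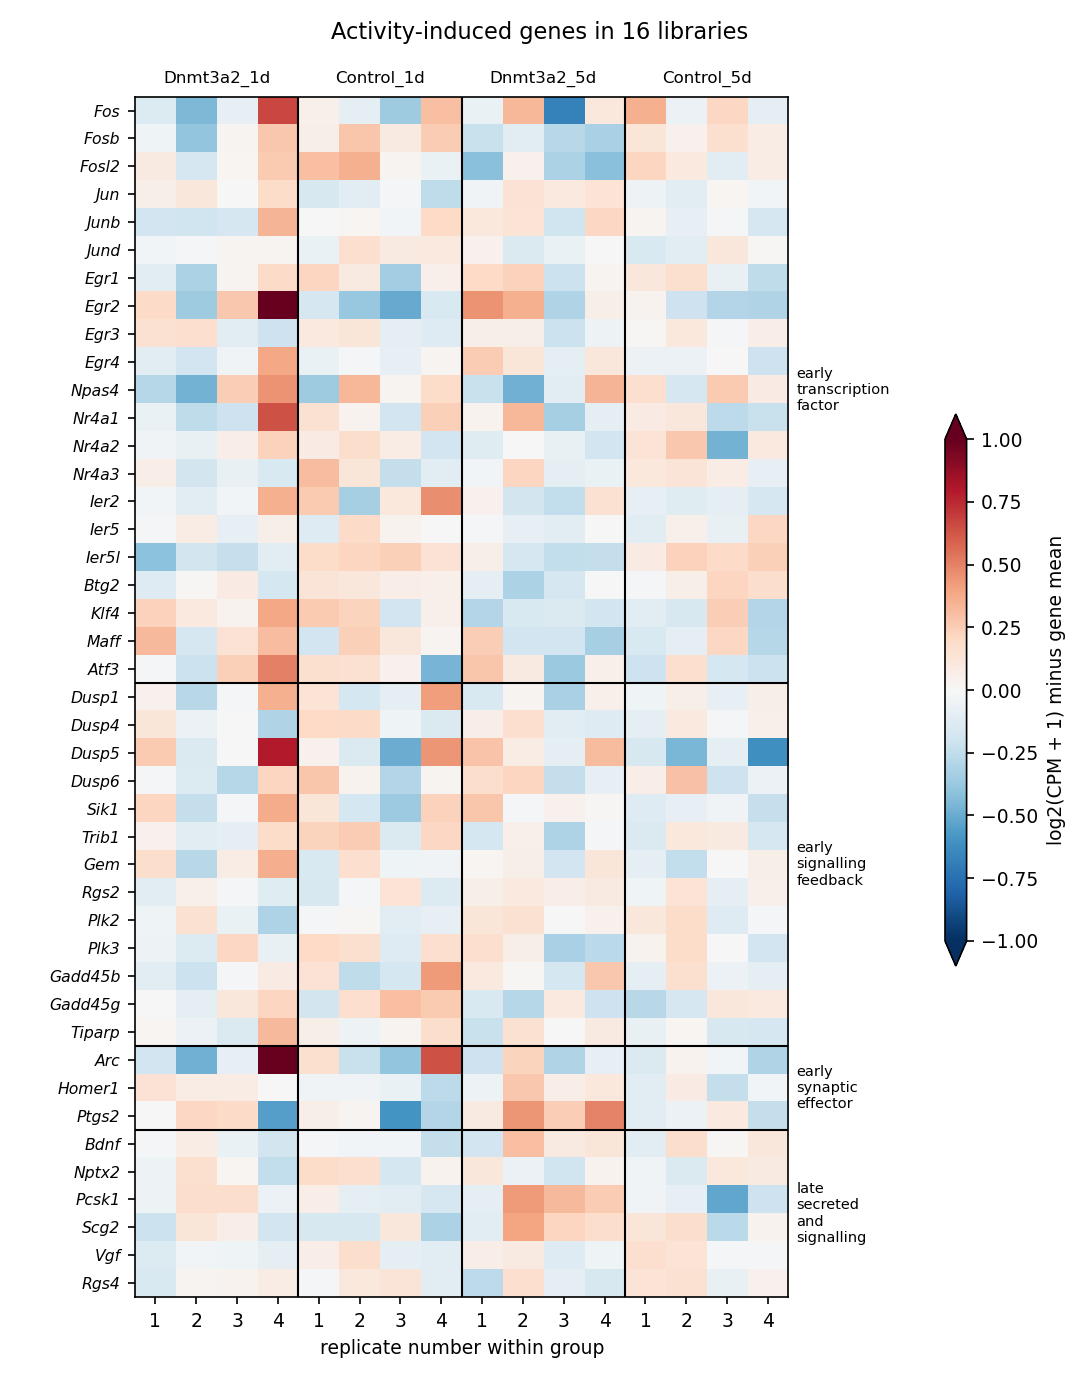
Level of each of the 43 genes (rows, by role) in each of the 16 libraries (columns, by group and replicate number), as log2(CPM + 1) minus the gene's mean over all libraries; colours saturate at a difference of 1. Replicate 4 of Dnmt3a2_1d is red for many early genes, Arc and Egr2 most of all, and Ier5l is blue in most Dnmt3a2 libraries and red in controls.

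Of the activity-induced genes, Ier5l, an immediate early response family gene, was lower with Dnmt3a2 than in controls, and the others were not called at either day. In edgeR's quasi-likelihood test with Benjamini-Hochberg adjustment over all genes, 1 of the 43 was called at 1 day, lower with Dnmt3a2, where 0.0888% of all tested genes were called in either direction, 0.0355% lower and 0.0533% higher. At 5 days 0 of the 43 were called, against 0.320% of all tested genes. At an unadjusted p under 0.05 the counts were 4 of 43 at 1 day, against 7.17% of all genes, and 8 of 43 at 5 days, against 8.01% of all genes. The median log2 fold change over the 43 was -0.01 at 1 day, with 19 genes above 0, where 50.9% of all tested genes were, and 24 below, and -0.01 at 5 days, with 21 above, where 52.8% of all tested genes were, and 22 below. Over all tested genes the medians were 0.00 and 0.01.

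Ier5l lies at chr2:30471537-30474219 on the minus strand. At 1 day it had 21.1, 24.8, 24.0 and 26.1 CPM in Dnmt3a2 libraries, against 32.2, 33.0, 33.6 and 31.4 CPM in controls. At 5 days it had 29.6, 25.1, 23.7 and 23.8 CPM in Dnmt3a2 libraries, against 30.1, 33.4, 32.4 and 33.6 CPM in controls. Every Dnmt3a2 library was below every control library across both days, which held for 0.219% of all tested genes and for no other gene of the 43. At 1 day alone it held for 1.76% of all tested genes and again for Ier5l alone of the 43. The log2 fold change was -0.44 at 1 day (SE 0.08, edgeR adjusted p = 0.0175) and -0.34 at 5 days (SE 0.07, edgeR adjusted p = 0.0544). The difference between these effects was 0.10 (SE 0.11, edgeR adjusted p = 1). The call at 1 day was lost in 5 of 25 alternatives (edgeR adjusted p up to 0.0819, without replicate 2 of Control_1d), and 10 of 25 alternatives called the 5-day difference.

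The 21 genes grouped as early transcription factors also hold the Ier genes and the co-regulator Btg2. Of them, 10 were above 0 and 11 below at 1 day, and 8 above and 13 below at 5 days. Jun, the AP-1 partner of Fos, lies at chr4:95049034-95052222. At 1 day it had 142, 148, 137 and 155 CPM with Dnmt3a2, against 122, 127, 135 and 114 CPM in controls, with no overlap. Non-overlap in this direction was found for 2 of the 43 genes, Jun and Homer1, and for 1.67% of all tested genes. Jun's log2 fold change was 0.22 at 1 day (SE 0.06, edgeR adjusted p = 0.218), and 0.13 at 5 days (SE 0.06, edgeR adjusted p = 0.563). The antisense gene Junos overlaps Jun, but its level was 0.336 to 0.977 CPM. The sources used here do not state the strand of counting.

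Among the Fos family, Fosb had 6.84, 7.44, 6.54 and 6.32 CPM with Dnmt3a2 at 5 days, against 8.92, 8.43, 9.19 and 8.63 CPM in controls. The groups did not overlap. Non-overlap with lower Dnmt3a2 values was found for 2 of the 43 genes at 5 days, Fosb and Ier5l, and for 3.29% of all tested genes. The log2 fold change of Fosb was -0.37 (SE 0.12, edgeR adjusted p = 0.302), and Fosl2, another Fos relative, had -0.35 (SE 0.12, edgeR adjusted p = 0.370). Btg2, an antiproliferative co-regulator, averaged 16.5 ± 1.56 CPM with Dnmt3a2 and 19.9 ± 1.57 CPM in controls at 5 days (SD, n = 4 each; edgeR adjusted p = 0.244). Fos itself had 5.63, 4.34, 5.89 and 10.6 CPM with Dnmt3a2 at 1 day, against 6.56, 5.86, 4.71 and 8.01 CPM in controls. At 5 days it had 5.98, 8.19, 3.57 and 6.86 CPM with Dnmt3a2, against 8.35, 6.01, 7.43 and 5.86 CPM in controls. Both pairs of Fos groups overlapped.

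The Egr zinc finger factors and Npas4 also overlapped between virus groups. Egr1 averaged 169 ± 25.1 CPM with Dnmt3a2 and 177 ± 28.2 CPM in controls at 1 day, and 183 ± 25.0 CPM with Dnmt3a2 and 174 ± 22.2 CPM in controls at 5 days (SD, n = 4 each). Egr2 had the largest fold change of the 43 genes at both days, and the lowest precision. It had 1.68, 0.833, 1.83 and 4.82 CPM with Dnmt3a2 at 1 day, against 1.09, 0.809, 0.653 and 1.11 CPM in controls. Its log2 fold change was 1.32 (SE 0.41, edgeR adjusted p = 0.398), and 0.66 without replicate 4 of Dnmt3a2_1d. At 5 days it was 0.63 (SE 0.41, edgeR adjusted p = 0.796). Npas4 had log2 fold changes of -0.04 (SE 0.24, edgeR adjusted p = 0.990) at 1 day and -0.21 (SE 0.24, edgeR adjusted p = 0.922) at 5 days.

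**Figure D2:**
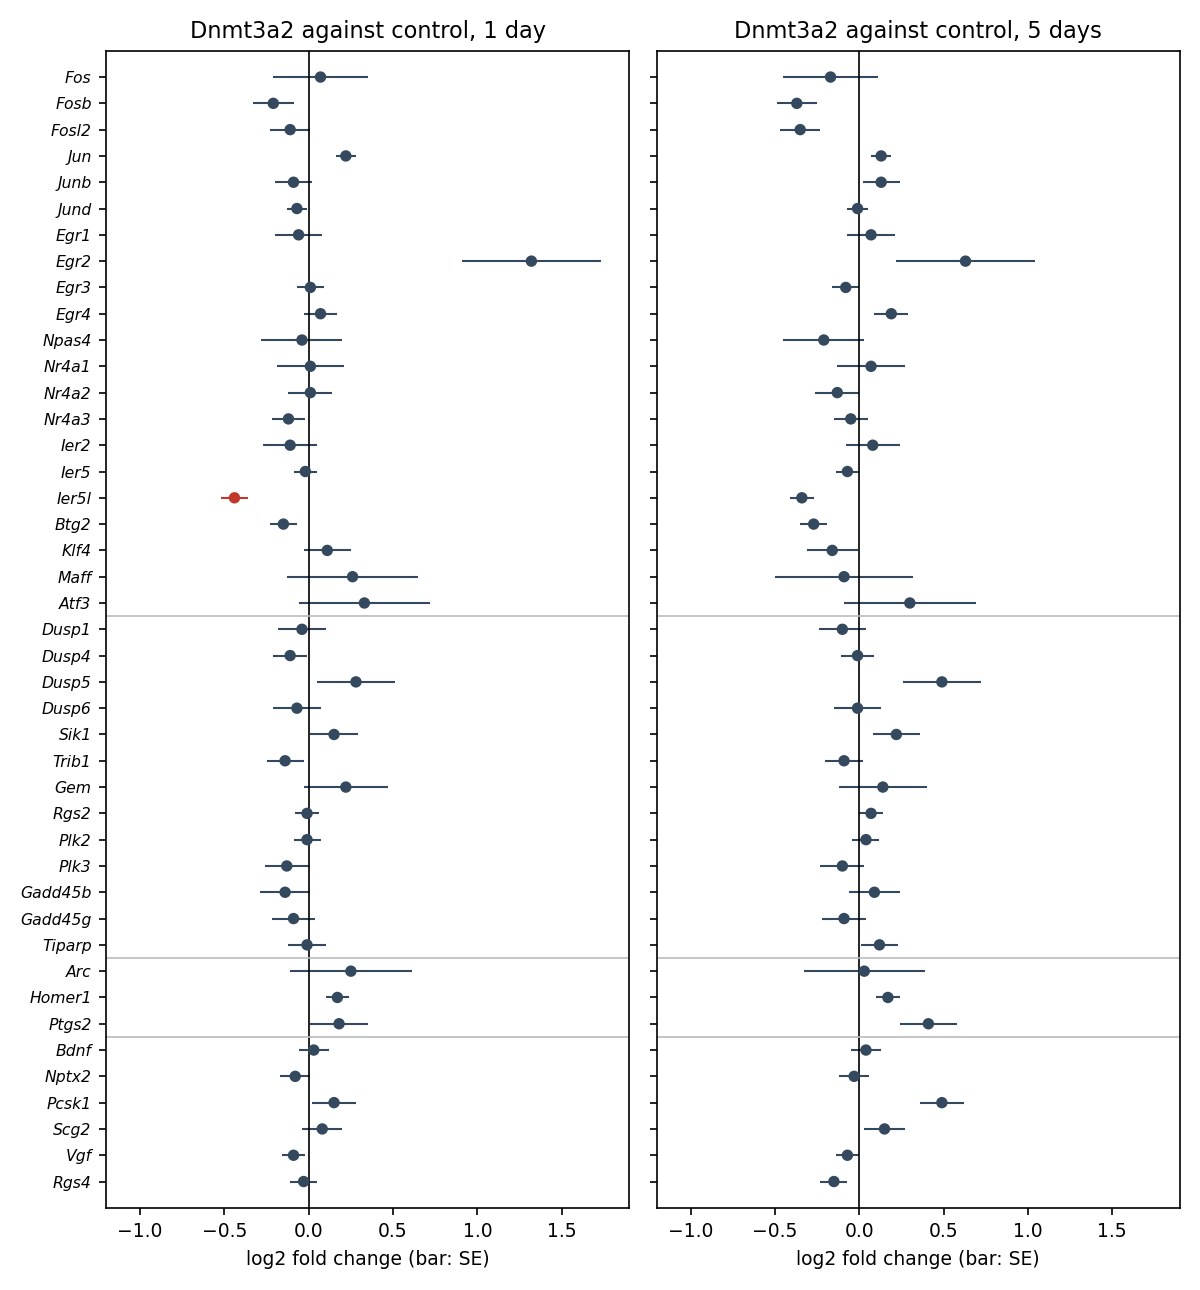
Log2 fold change of Dnmt3a2 against control for the 43 genes at 1 day (left) and 5 days (right), with bars of 1 SE; grey lines separate the roles in the order of the plot of levels, and red marks an edgeR adjusted p under 0.05. Ier5l at 1 day is the red point, at -0.44, and Egr2 has the widest displacement with a long error bar.

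Of the 13 genes for signalling feedback, 0 were called at either day, with 3 above 0 and 10 below at 1 day and 7 above and 6 below at 5 days. Plk2, a kinase that weakens overactive synapses, was the most abundant by CPM and averaged 167 ± 21.6 CPM with Dnmt3a2 and 168 ± 6.26 CPM in controls at 1 day (SD, n = 4 each). Dusp6, a phosphatase of ERK, averaged 57.5 ± 8.76 CPM with Dnmt3a2 and 60.3 ± 9.72 CPM in controls at 1 day. Dusp5, a nuclear ERK phosphatase, had 31.2, 26.8, 23.6 and 31.9 CPM with Dnmt3a2 at 5 days, against 22.6, 18.2, 23.6 and 16.2 CPM in controls. Its log2 fold change there was 0.49 (SE 0.23, edgeR adjusted p = 0.640). Sik1, a salt-inducible kinase that restrains CREB co-activators, had 10.6, 8.49, 8.84 and 8.64 CPM with Dnmt3a2 at 5 days, against 7.75, 8.03, 8.34 and 7.17 CPM in controls. It was the 1 gene of the 43 whose Dnmt3a2 libraries at 5 days lay wholly above controls, which held for 3.00% of all tested genes, and its edgeR adjusted p was 0.783.

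The 3 synaptic effectors had positive log2 fold changes at both days, and none was called. Homer1, a postsynaptic scaffold whose short form is the activity-induced product, had 86.0, 82.0, 82.1 and 78.1 CPM with Dnmt3a2 at 1 day, against 76.0, 76.2, 74.2 and 64.8 CPM in controls. Its log2 fold change was 0.17 at each day (SE 0.07, edgeR adjusted p = 0.622 and 0.527), and the gene counts sum its long and short forms. Ptgs2, the inducible cyclooxygenase, had 24.4, 31.3, 27.2 and 32.6 CPM with Dnmt3a2 at 5 days, against 21.1, 21.9, 24.5 and 19.2 CPM in controls. These ranges touched, and the log2 fold change was 0.41 (SE 0.17, edgeR adjusted p = 0.537). Arc (chr15:74669083-74672570) had 137, 112, 148 and 403 CPM with Dnmt3a2 at 1 day, against 175, 134, 119 and 244 CPM in controls. At 5 days it had 135, 183, 127 and 148 CPM with Dnmt3a2, against 141, 160, 153 and 127 CPM in controls. The direction of Arc at 1 day rested on a single library: its log2 fold change was 0.25 (SE 0.36) with all libraries and -0.34 (SE 0.22) without replicate 4 of Dnmt3a2_1d. With replicate 4 of Control_1d left out as well, it was -0.11 (SE 0.17).

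Of the 6 late genes, 3 were above 0 and 3 below at each day, and 0 were called. Pcsk1, the prohormone convertase that cleaves neuropeptide precursors, had 8.72, 12.9, 12 and 11.4 CPM with Dnmt3a2 at 5 days, against 9.12, 8.80, 6.23 and 7.97 CPM in controls. Replicate 1 of Dnmt3a2_5d fell within the control range and the other Dnmt3a2 libraries lay above it. The log2 fold change was 0.49 (SE 0.13, edgeR adjusted p = 0.130), and 4 of 25 alternatives called it. At 1 day Pcsk1 averaged 9.85 ± 1.02 CPM with Dnmt3a2 and 8.87 ± 0.712 CPM in controls (SD, n = 4 each). Bdnf, the neurotrophin of activity-dependent plasticity, averaged 33.6 ± 2.54 CPM with Dnmt3a2 and 32.8 ± 2.42 CPM in controls at 1 day. At 5 days Bdnf averaged 37.0 ± 5.19 CPM with Dnmt3a2 and 36.0 ± 3.14 CPM in controls. Vgf averaged 218 ± 15.2 CPM with Dnmt3a2 and 229 ± 15.7 CPM in controls at 5 days, and Scg2 175 ± 24.8 CPM with Dnmt3a2 and 157 ± 20.7 CPM in controls.

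**Figure D3:**
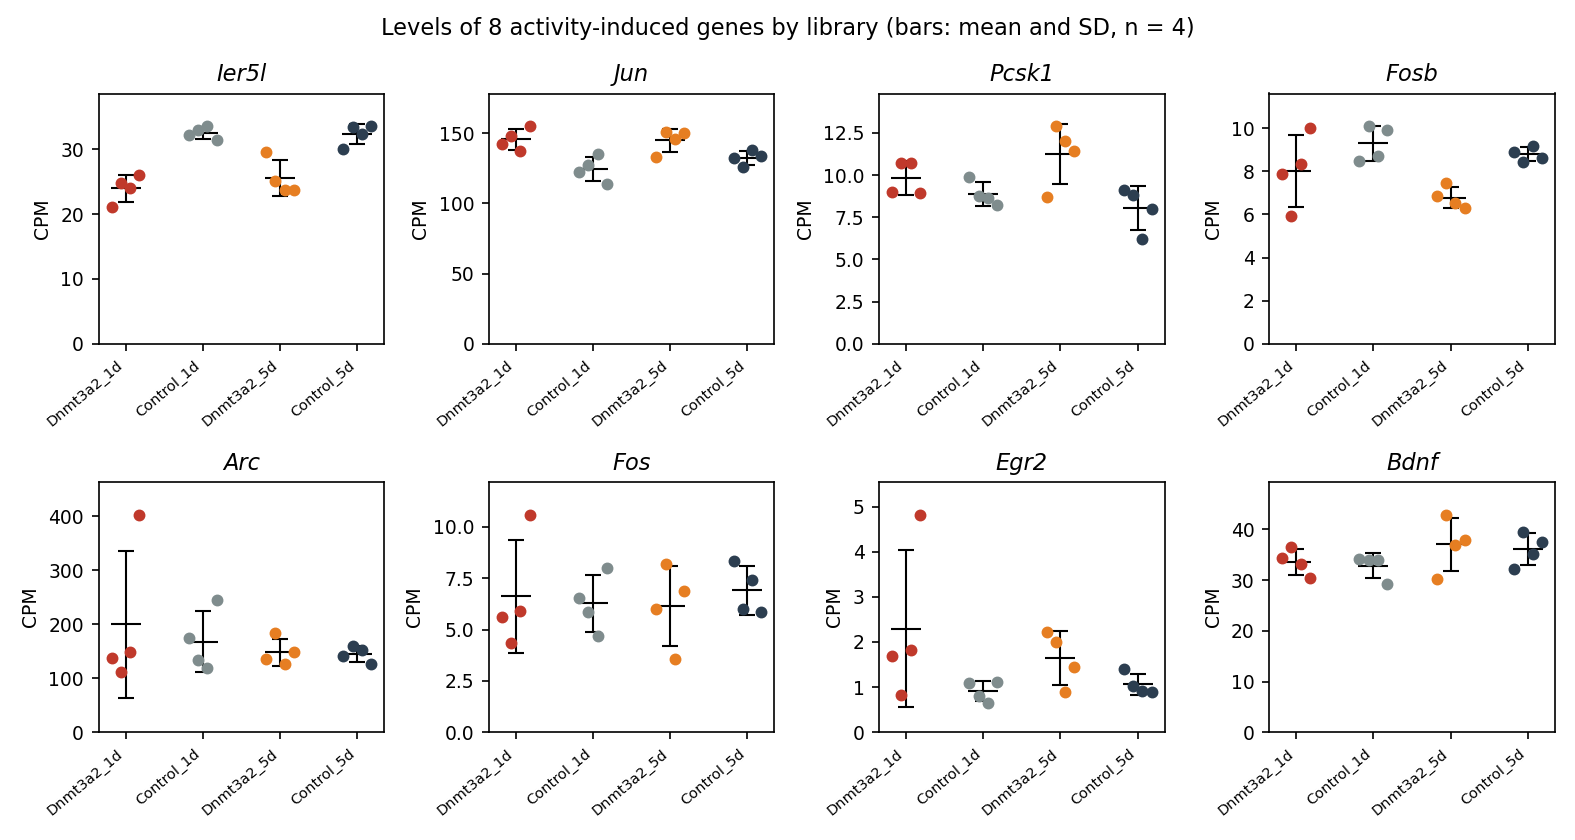
CPM (vertical axes, from 0) of 8 of the genes in each library (points) by group, with the mean and SD of 4 libraries. Ier5l separates the virus groups at both days, Jun separates them at 1 day, and the Arc, Fos and Egr2 panels each show replicate 4 of Dnmt3a2_1d at the top.

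Averaged over both days in the same fit, a comparison added after the data had been seen, 2 of the 43 genes were called, where 1.43% of all tested genes were called. Ier5l fell by 0.39 on the log2 scale (SE 0.05, edgeR adjusted p = 0.000307), and this call held in each of 24 alternatives. Jun rose by 0.18 (SE 0.04, edgeR adjusted p = 0.0328), and its call was lost in 12 of 24 alternatives (adjusted p 0.00377 to 0.0922). The summed markers of dentate granule neurons also differed between the virus groups at 5 days. The sum of 6 markers was 566 to 702 CPM with Dnmt3a2 and 602 to 751 CPM in controls at 1 day, and 569 to 601 CPM with Dnmt3a2 and 660 to 768 CPM in controls at 5 days. Of these 6 markers 3 were below 0 at 1 day and all 6 at 5 days. Only C1ql2 was called at 5 days (log2 fold change -0.6, SE 0.08, edgeR adjusted p = 0.00119). It averaged 128 CPM with Dnmt3a2 and 194 CPM in controls. The log2 fold changes of the others ran from -0.34 for Dsp to -0.02 for Rfx3. The part of these markers in the Ier5l and Jun values was not tested. No correlation of the dentate sum with Ier5l was computed, and the libraries named next are examples. Replicate 1 of Dnmt3a2_1d had the lowest Ier5l level of the 16 libraries, at 21.1 CPM, and the highest dentate sum of its group, at 702 CPM. In Control_1d replicate 3 was highest in both, at 33.6 CPM for Ier5l and 751 CPM for the sum. Replicate 4 of Control_1d was lowest of its group in both, at 31.4 and 602 CPM. In Control_5d replicate 4 was highest in both, at 33.6 and 768 CPM. In Dnmt3a2_5d replicate 3 was lowest in both, at 23.7 and 569 CPM. The highest library of Dnmt3a2_5d and the lowest of Control_5d were not the same for both measures. Without the libraries richest in choroid plexus markers, Ier5l was called at both days.

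Between the days no gene of the 43 was called in either virus group, nor was any other tested gene by edgeR (0% in each). At an unadjusted p under 0.05 there were 2 of 43 genes with Dnmt3a2, against 10.8% of all genes, and 0 of 43 in controls, against 3.54% of all genes. DESeq2 called 48 genes of the whole table with Dnmt3a2 and 0 in controls, none of them among the 43. Of the 37 early genes 25 were below 0 in each virus group, and 4 of the 6 late genes were above 0 in each. Of the 43, 16 were above 0 in each virus group, against 50.2% of all tested genes with Dnmt3a2 and 50.0% in controls. The median over the 37 early genes was -0.07 with Dnmt3a2 and -0.08 in controls, and that over all tested genes was 0.00 in both. With Dnmt3a2 the early count rested on replicate 4 of Dnmt3a2_1d: without it 16 of 37 were below 0 and the median was 0.03, and Arc had a log2 fold change of 0.16, against -0.43 with it. The sign also turned without it for Fos (0.21, against -0.11), Nr4a1 (0.18, against -0.07), Dusp5 (0.11, against -0.12) and Egr2 (0.18, against -0.48), none of them called. In controls the count below 0 was 20 without replicate 2 of Control_1d, the lowest over single omissions of control libraries, and at most 26. The early median was also nearer 0, at -0.02, without replicate 3 of Dnmt3a2_5d for Dnmt3a2, and without replicate 2 or replicate 4 of Control_1d for controls. Some marker lists of cell types, neurons among them, also shared a sign between days, but no marker was called. In each virus group 0 of 5 endothelial markers and 5 of 5 blood markers were above 0. The smallest edgeR adjusted p was 0.408 and 0.448 with Dnmt3a2, and 0.999 for both lists in controls. With Dnmt3a2 0 of 5 astrocyte and 0 of 5 oligodendrocyte markers were above 0, against 2 and 1 of 5 in controls. Dentate granule markers had opposite signs, with 0 of 6 above 0 with Dnmt3a2 and 6 of 6 in controls. Their smallest edgeR adjusted p was 0.451 and 0.999. Of 5 mural cell markers 2 were above 0 with Dnmt3a2 and 0 in controls. Endothelial markers summed to 75.7 to 120 CPM at 5 days and 100 to 139 CPM at 1 day with Dnmt3a2, and to 74.4 to 117 CPM at 5 days and 84.7 to 121 CPM at 1 day in controls. Blood markers summed to 312 to 495 CPM at 5 days and 217 to 282 CPM at 1 day with Dnmt3a2, and to 221 to 715 CPM at 5 days and 230 to 326 CPM at 1 day in controls. The part of these cells in the early gene values was not tested. Klf4, a zinc finger factor, had 3.93, 4.44, 4.47 and 4.30 CPM at 5 days with Dnmt3a2, against 6.11, 5.48, 5.20 and 6.90 CPM at 1 day. The days did not overlap, which was so for 1 of 43 genes and 2.49% of all genes in this direction (log2 fold change -0.47, SE 0.15, edgeR adjusted p = 0.317). Rgs2, an inhibitor of G protein signalling, was the 1 gene of the 43 wholly above its 1-day values, where 2.68% of all genes were, with 28.4 ± 0.383 CPM at 5 days and 25.9 ± 1.53 CPM at 1 day (SD, n = 4 each). In controls the smallest p-values belonged to Ier2, Jund, Gadd45g and Trib1, with log2 fold changes of -0.32, -0.10, -0.21 and -0.17 (edgeR adjusted p = 0.999 each). A difference of the Dnmt3a2 effects between days was not called for any of the 43 genes (edgeR adjusted p = 1 for all, 0 at an unadjusted p under 0.05 against 2.13% of all genes), and the smallest p belonged to Pcsk1, at a difference of 0.34 (SE 0.18).

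Libraries of the same group varied widely in some early genes. The coefficient of variation was over 20% in 9 of the 43 genes, among them Egr2, Atf3, Maff and Gem near 1 CPM. Replicate 4 of Dnmt3a2_1d was the highest of all 16 libraries for 14 of the 43 genes, all of them early, or 32.6% of the set, while 11.0% of all tested genes peaked there. Arc reached 403 CPM there, 2.85 times the median of the other libraries, and the next highest was 244 CPM in replicate 4 of Control_1d. Egr2 was 4.43 times, Dusp5 1.89 times, Fos 1.77 times and Nr4a1, an orphan nuclear receptor, 1.63 times the median of the others. Of the 6 late genes 0 peaked there, and 4 (Scg2, Bdnf, Pcsk1 and Rgs4) peaked in replicate 2 of Dnmt3a2_5d, where 11.0% of all tested genes peaked. In that high-Arc library choroid plexus markers summed to 46.6 CPM and microglial markers to 184 CPM, against 251 to 311 CPM for microglia in the others of its group, and their part in the early gene levels was not tested.

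Arc was then used as an anchor, chosen after its values were seen. Each gene's log2(CPM + 1) was taken as a deviation from its group mean, and correlated with that of Arc over the 16 libraries in 42 relations, with p-values from 100000 permutations of libraries within groups. In 10 early genes both Pearson's r and Spearman's rho passed an adjusted p of 0.05, all positive. Nr4a1 had r = 0.86 and rho = 0.81 (permutation p = 0.00057 and 0.00059, adjusted 0.012 and 0.020). Fos had r = 0.83 and rho = 0.77 (permutation p = 0.00016 and 0.00098, adjusted 0.0067 and 0.020). Dusp1, a nuclear MAP kinase phosphatase, had r = 0.84 and rho = 0.80 (permutation p = 0.0012 and 0.0019, adjusted 0.017 and 0.020). The others were Egr2, Junb, Egr4, Dusp5, Tiparp, Gadd45b and Trib1, with r between 0.64 and 0.85. Over all 16898 other tested genes the median r with Arc was -0.01, and 2.75% reached 0.6, against 33.3% of the 42 genes. Of the 6 late genes, 5 had r below 0 and none passed, and these signs depended on the libraries left in.

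The relation passed an adjusted p of 0.05 only with 2 libraries kept, though r stayed positive in all 10 genes without them. Fewer libraries also leave fewer permutations, so the lost calls do not show that the relation rested on these libraries. Without them 8 of the 42 relations had an unadjusted permutation p under 0.05. Without replicate 4 of Dnmt3a2_1d and replicate 4 of Control_1d, the libraries farthest from the median of Arc, r of the 10 genes ran from 0.43 to 0.74, and none passed an adjusted p of 0.05 by permutation. Fos and Dusp1 then had r = 0.72 each (permutation p = 0.014 and 0.028, adjusted 0.14 and 0.20), and Nr4a1 0.70 (permutation p = 0.017, adjusted 0.14). Junb, Egr4 and Tiparp stood at 0.44, 0.43 and 0.44. Egr1 and Nr4a3 had r = 0.79 and 0.85 without these libraries, against 0.64 and 0.10 with them. Of the 6 late genes 5 had r above 0 without these libraries. Bdnf stood at 0.28 and Nptx2 at 0.12, against -0.32 and -0.37 with them. The signs of the late genes thus rested on these libraries. The labels give no batch or collection order within which the relation could be repeated.

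**Figure D4:**
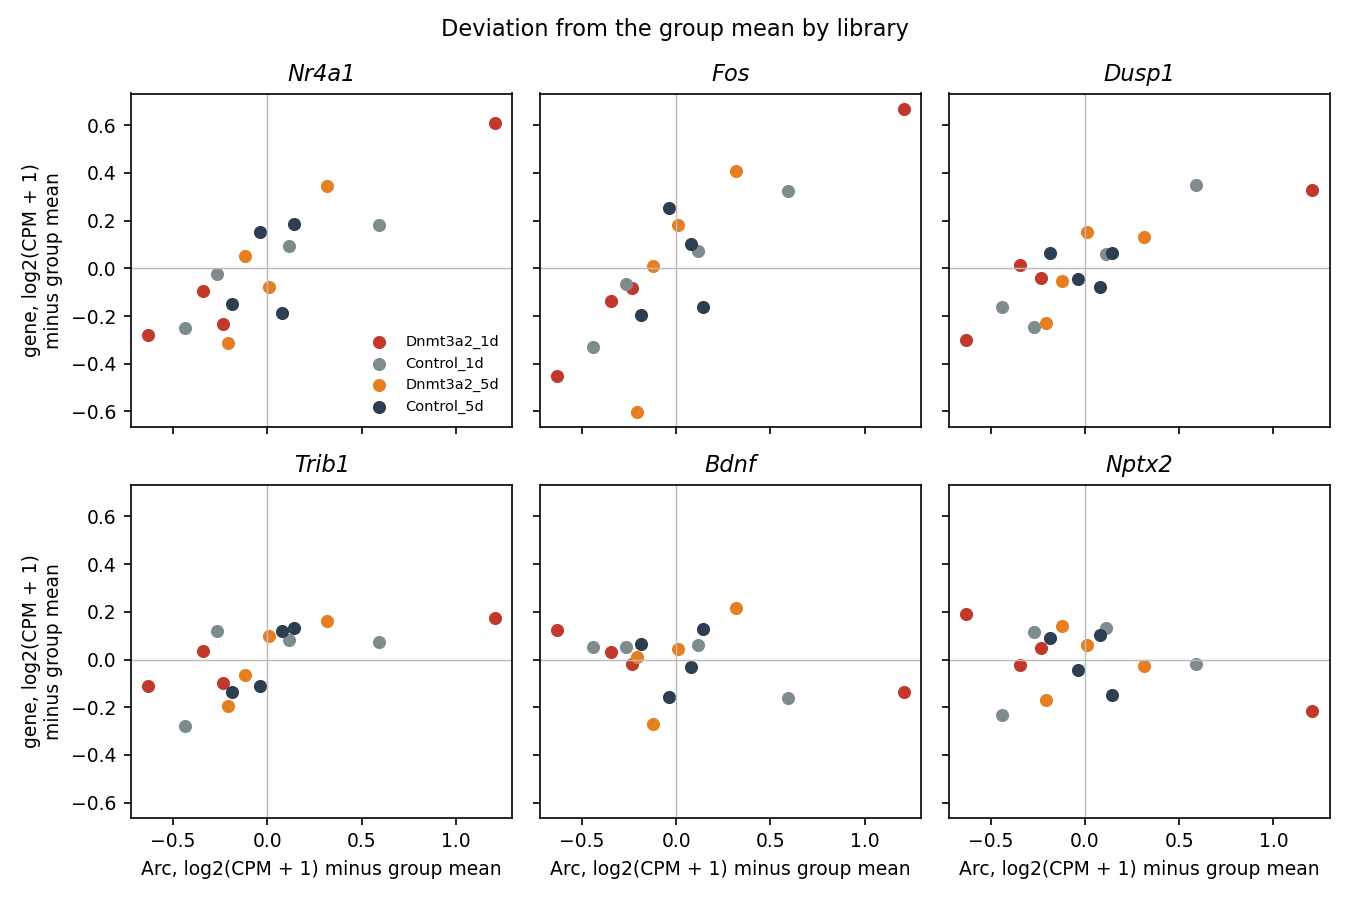
Deviation of 4 early genes and 2 late genes from their group means (vertical axes) against that of Arc (horizontal axes), both in log2(CPM + 1), with 1 point per library coloured by group. Nr4a1, Fos, Dusp1 and Trib1 climb with Arc (r = 0.86, 0.83, 0.84 and 0.64), and Bdnf and Nptx2 have r = -0.32 and -0.37, or 0.28 and 0.12 without the points farthest to the right in Dnmt3a2_1d and Control_1d, replicate 4 of each.

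Leaving out the libraries highest in Arc changed the early genes' estimates at 1 day and no call among them at that day. Without replicate 4 of Dnmt3a2_1d the log2 fold change of Fos at 1 day was -0.25, against 0.07 with it, that of Nr4a1 was -0.24, against 0.01 with it, and that of Junb -0.24, against -0.09 with it. Ier5l was called at 1 day with and without that library, and at 5 days it was called without it. Averaged over days, Jun was not called without it and Fosb was. That omission kept replicate 4 of Control_1d, the other library high in Arc. With both left out, the log2 fold changes at 1 day were -0.11 for Fos, -0.18 for Nr4a1 and -0.19 for Junb.

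Further genes of the pathway were listed apart from the 43. These lists were chosen with earlier results of these data known, so their counts beside the share of all genes are descriptive only. Of 30 further activity-induced genes, 1 was called at each day, Penk, the enkephalin precursor, higher with Dnmt3a2, where 0.0533% of all tested genes were called higher at 1 day and 0.148% at 5 days. It averaged 56.1 ± 4.20 CPM with Dnmt3a2 and 35.9 ± 4.07 CPM in controls at 1 day, and 61.4 ± 5.80 CPM with Dnmt3a2 and 40.2 ± 2.84 CPM in controls at 5 days (SD, n = 4 each). Averaged over days 3 of the 30 were called, all higher, where 0.704% of all tested genes were called higher: Penk, Cited2, a co-regulator that binds CBP and p300 (log2 fold change 0.25, SE 0.05, edgeR adjusted p = 0.0150), and Inhba, the activin subunit (0.38, SE 0.09, edgeR adjusted p = 0.0346). Of 32 upstream kinases, channels and transcription factors, 0 were called at 1 day, against 0.0888% of all tested genes, and the smallest p-values belonged to Crebbp and Elk4 (edgeR adjusted p = 0.573 and 0.653). At 5 days 1 of the 32 was called, where 0.172% of all tested genes were called lower. It was Camk2a, the calcium/calmodulin kinase subunit abundant at synapses, which averaged 7430 ± 204 CPM with Dnmt3a2 and 8570 ± 498 CPM in controls (SD, n = 4 each; log2 fold change -0.21, SE 0.04, edgeR adjusted p = 0.0448).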

How the data were processed

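RNA was sequenced from 500 ng of total RNA per library on a BGISEQ-500, per the labels' protocols. The tools in the submitters' processing notes are kallisto 0.4.6, Trim Galore 0.6.4 and edgeR 3.17, with build GRCm38.p6. The sources used here state neither the strand nor the annotation release. The deposited expected counts are estimated counts per gene, not normalised, and 26.2% were not whole. The deposited log2 values are log2 CPM, checked against edgeR on the deposited counts (largest difference 5.3e-15 over 16907 genes), and were not tested.

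After rounding, genes low in counts were removed by edgeR's filterByExpr, and libraries were scaled by TMM. All 16 libraries entered 1 robust quasi-likelihood fit in edgeR 4.0.16 (R 4.3.3), and genes were called at an adjusted p under 0.05 over 16899 genes. SE is the fold change divided by the root of F. Gene names came from GENCODE M21 (55144 of 55385 identifiers), and promoters from RefSeq tables. A simulation with 200 changed genes was run as a check, and its outcome is not reported here. No power to detect small changes is given, so a gene not called may still differ. Library pairs were checked for duplicates (chi-square per gene 4.44 to 44.24 over 120 pairs). With totals of 28.6 to 30.0 M counts, genes near 1 CPM have counting error on top of spread.

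The members and lists were chosen with earlier results of these data known. Named genes were the called ones, the 4 smallest p per comparison, the 2 most abundant per role, Fos, Npas4, Arc, Egr1, Bdnf and Homer1, called or leading pathway genes, and Dnmt3a. Other genes, among them Nr4a1, Dusp1, Dusp5, Egr4, Sik1 and Rgs2, were chosen after their values were seen. Alternatives were DESeq2 1.42.0, RLE factors, no filter, mean CPM of at least 1, limma-trend (limma 3.58.1) on log2(CPM + 1), a replicate block, only the groups compared, and 16 single omissions. Leaving out the 2 libraries highest in Arc, or in choroid plexus markers, was added after seeing the data, as were counts of signs without single libraries.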

Additional observations from a re-analysis of the deposited data

Results flagged for a closer look

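Of 172 gene-by-group sets of 4 libraries, 10 held a library far from the others by Dixon's ratio at its 95% critical value, where chance gives about 1 in 20. In replicate 4 of Dnmt3a2_1d, Arc stood at 403 CPM against 112 to 148 CPM in the rest of its group, Nr4a1 at 105 CPM against 56.2 to 64.1, Junb at 95.8 CPM against 65.9 to 67.2, and Ier2 at 7.70 CPM against 5.35 to 5.70. Sik1 stood at 10.6 CPM in replicate 1 of Dnmt3a2_5d, against 8.49 to 8.84 CPM in the rest of that group.

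In controls, replicate 2 of Control_5d was highest for Gadd45b at 8.10 CPM, against 6.65 to 6.83 CPM, and for Atf3 at 1.03 CPM, against 0.555 to 0.599 CPM. Replicate 3 of Control_1d was lowest for Trib1 at 11.0 CPM, against 14.3 to 14.8 CPM, and for Plk3 at 7.01 CPM, against 8.80 to 9.03 CPM. Replicate 4 of Control_1d was lowest for Bdnf at 29.2 CPM, against 34.0 to 34.2 CPM. The causes were not tested.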

How the results depend on the processing

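Counts below are of all genes called, then of the 43 activity-induced genes. At 1 day the values were 15 and 1 as reported. DESeq2 called 65 genes, the table without a filter 34, and a fit of only the groups compared 7 and 0. At 5 days, reported as 54 and 0, DESeq2 called 143 and 2, no filter 79 and 2, and only the groups compared 94. The mean CPM minimum and limma-trend each called 1 of the 43 at 5 days, as did leaving out the libraries highest in Arc, and leaving out those highest in choroid plexus markers gave 90 and 2. Between days with Dnmt3a2, DESeq2 called 48 genes and no filter 6. For the difference of the effects DESeq2 called 1 gene. Averaged over days, reported as 241 and 2, DESeq2 called 512 and 6 and no filter 292 and 3. Leaving out each replicate in turn gave 6 to 22 genes and 0 to 1 activity-induced genes at 1 day, 22 to 82 and 0 to 2 at 5 days, 0 to 1 genes between days with Dnmt3a2, and 121 to 272 and 1 to 3 averaged over days. The causes were not tested.

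Replicate numbers are shared by the groups. Of 24 pairs of libraries with the same number, 9 had r over 0.1 (r from -0.1 to 0.442). Of the 16 libraries, 8 correlated best with a library of their own number. No level expected by chance was computed, so a structure shared by replicate number was not tested. With the replicate block, 17 genes and 1 activity-induced gene were called at 1 day, 65 and 0 at 5 days, and 295 and 2 averaged over days. Without the block the counts of all genes were 15, 54 and 241. Ier5l at 1 day then had an edgeR adjusted p of 0.0313.

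No called direction of a named gene was reversed in the alternatives run. Genes near 1 CPM, such as Egr2, Atf3, Maff and Gem, are limited by depth.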
